A study of Bos taurus with 6 samples.

Results

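The miR-30 family was measured in serum extracellular vesicles (EVs), the membrane-enclosed particles that cells release into blood. Its members were taken by name from the deposited count table, bta-miR-30a-5p, bta-miR-30b-5p, bta-miR-30c, bta-miR-30d, bta-miR-30e-5p and bta-miR-30f, which are 6 of the 359 known Bos taurus miRNAs and of the 706 miRNAs listed in all. Each of the 6 had counts in every library. The samples were 1 EV library per animal from 6 female Holstein cows in mid lactation, at 101 ± 10 days in milk per the labels. The control group (3 cows) was fed a Total Mixed Ration (TMR). In the feed of the tested group (3 cows), whole cotton seed and soybean hull stood in for part of the alfalfa hay over 30 days, and the comparison asks whether this change of diet was followed by a change in EV-miRNAs.

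A miRNA guides the silencing complex to messenger RNAs mainly through its seed, the bases near its 5′ end that pair with the target. Members of a seed family can therefore share many targets, and they differ in the rest of the sequence. The miR-30 family is expressed in many tissues, and in other studies its members have been tied to epithelial state through SNAI1, to autophagy through BECN1 and to matrix production through CCN2. It is also known from milk and blood of cattle.

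The listed sequences are shown because the seed sets the family and the rest of each sequence decides which reads can be told apart. Each runs 5′ to 3′ as deposited, with T for U, and capitals mark bases 2 to 8.
bta-miR-30a-5p: tGTAAACAtcctcgactggaagct
bta-miR-30d: tGTAAACAtccccgactggaagct
bta-miR-30e-5p: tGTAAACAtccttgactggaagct
bta-miR-30b-5p: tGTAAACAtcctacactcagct
bta-miR-30c: tGTAAACAtcctacactctcagc
bta-miR-30f: tGTAAACAccctacactctcagct

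All 6 sequences had the same seed and the same first 8 bases, and their lengths were 22 nt for bta-miR-30b-5p, 23 nt for bta-miR-30c and 24 nt for the other members. The letters of a perfect seed match in a target are TGTTTAC. The sequences fell into a pair of subgroups. Counting positions from 1 at the 5′ end, bta-miR-30a-5p differed from bta-miR-30d by T12C alone and from bta-miR-30e-5p by C13T alone. In the other subgroup, bta-miR-30c differed from bta-miR-30f by T9C and by the last base of bta-miR-30f, which bta-miR-30c lacks. The first 18 bases of bta-miR-30b-5p and bta-miR-30c were identical. The number of edits between members ran from 1 to 7 over the 15 pairs, while every other listed miRNA, known or newly predicted, was at least 8 edits away from each member. No other listed miRNA had this seed or held, or lay within, a member sequence. How the authors assigned a read that matches several of these sequences is not given in the sources used here. Counts of members close in sequence are uncertain to that extent. This includes bta-miR-30b-5p and bta-miR-30c, since a read within their 18 shared bases matches both.

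In the RefSeq gene table of ARS-UCD2.0, a later build than that of the authors, all 6 members matched a gene name. There the genes sit in 3 pairs, each gene being the nearest miRNA gene of its partner. These pairs are MIR30A with MIR30F, MIR30D with MIR30B, and MIR30E with MIR30C. The last pair lies within NFYC, the gene of a subunit of the transcription factor NF-Y. MIR30A lies within another protein-coding gene, LOC132346186, and no spanning gene is listed for MIR30F, MIR30D or MIR30B. Each pair thus joins a member of the subgroup of bta-miR-30a-5p with a member of the subgroup of bta-miR-30c.

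The libraries held between 1277693 and 2176002 miRNA counts, of which between 1226928 and 2088249 were on known miRNAs. Unless another scale is named, a value is a share of all counts on known miRNAs in that library. Red blood cell miRNAs set 1 library apart. The 3 red blood cell miRNAs (bta-miR-451, bta-miR-144 and bta-miR-486) held 5.96% in tested cow 1 and between 0.862% and 2.84% in the other cows. Leaving out tested cow 1 changed no call of a member, and the family results are also given without these miRNAs in the total. Those of white blood cells (3 of 4 listed), liver (1 of 1), platelets and vessels (3 of 3) and muscle (3 of 3) each held at most 0.0598%, with bta-miR-133a at 0 in some libraries. The 5 epithelial miRNAs of the miR-200 family held 7.44% to 9.39%. Serum EVs come from many cell types and no miRNA defines them. A share in such a mixture cannot tell fewer vesicles of a kind from fewer copies in each.

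Together the 6 members held 12.7%, 12.9% and 11.9% of the known miRNA counts in control cows and 12.9%, 13.8% and 13.2% in tested cows. The mean was 12.5% ± 0.558 (SD, n = 3) for the control group and 13.3% ± 0.457 (SD, n = 3) for the tested group. The highest control cow, at 12.9303%, and the lowest tested cow, at 12.9318%, were all but level. In shares of all miRNA counts the groups overlapped, with 11.6% to 12.6% in control cows and 12.4% to 13.5% in tested cows. No p is given for this sum, because the members were chosen with results of these cows known. The p-values of single members have the same limit, because these members were chosen in the same way. Of 247 seed families of known miRNAs with at least 10 counts, 8.91% had groups that did not overlap by share. With the red blood cell miRNAs taken out of the total, the difference was 0.940 percentage points in place of 0.828, and without tested cow 1 it was 1.03. It was smaller without control cow 3, at 0.511, and without tested cow 2, at 0.579. The epithelial miRNAs of the miR-200 family moved in the same direction, with 7.72%, 8.89% and 7.44% in control cows and 8.80%, 8.79% and 9.39% in tested cows. Their means were 8.02% ± 0.770 (SD, n = 3) and 8.99% ± 0.346 (SD, n = 3), the groups overlapped, and their part in the family difference was not tested.

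The direction of this difference depended on the total. As a share of clean reads, from the deposited RPM values (each count scaled to the clean reads of its library), the family held 1.37%, 2.03% and 2.14% in control cows and 1.10%, 2.16% and 1.14% in tested cows. The mean was 1.85% ± 0.417 (SD, n = 3) in controls against 1.47% ± 0.598 (SD, n = 3) in tested cows, so the tested mean was the lower one. All known miRNAs together made up 14.8% ± 3.70 (SD, n = 3) and 10.9% ± 4.06 (SD, n = 3) of the clean reads, which moved in the same direction. The part of this shift in the family value was not tested.

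Ranked by summed share, the miR-30 seed came at rank 3 of 283 seeds among known miRNAs. The let-7 family, with bta-let-7b in front, held 22.1% ± 2.38 (SD, n = 6), and the seed of bta-miR-26a held 16.0% ± 1.02 (SD, n = 6). The miR-30 family followed with 12.9% ± 0.643 (SD, n = 6) and the seed of bta-miR-148a with 9.86% ± 1.30 (SD, n = 6). The first 2 kept their places in every library. The miR-30 family was at rank 3 in 5 libraries and at rank 4 in control cow 3, where the seed of bta-miR-148a held 11.9130% against 11.8745%. Relative to its mean, the miR-30 sum varied by 4.98% between cows. The values were 10.8% for let-7, 6.37% for the seed of bta-miR-26a and 13.2% for that of bta-miR-148a. Nearest among the leading 8 seeds was that of bta-miR-200c, at 5.52%. As a share of clean reads, the miR-30 sum varied by 30.5%. These values were not tested against each other.

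**Figure D1:**
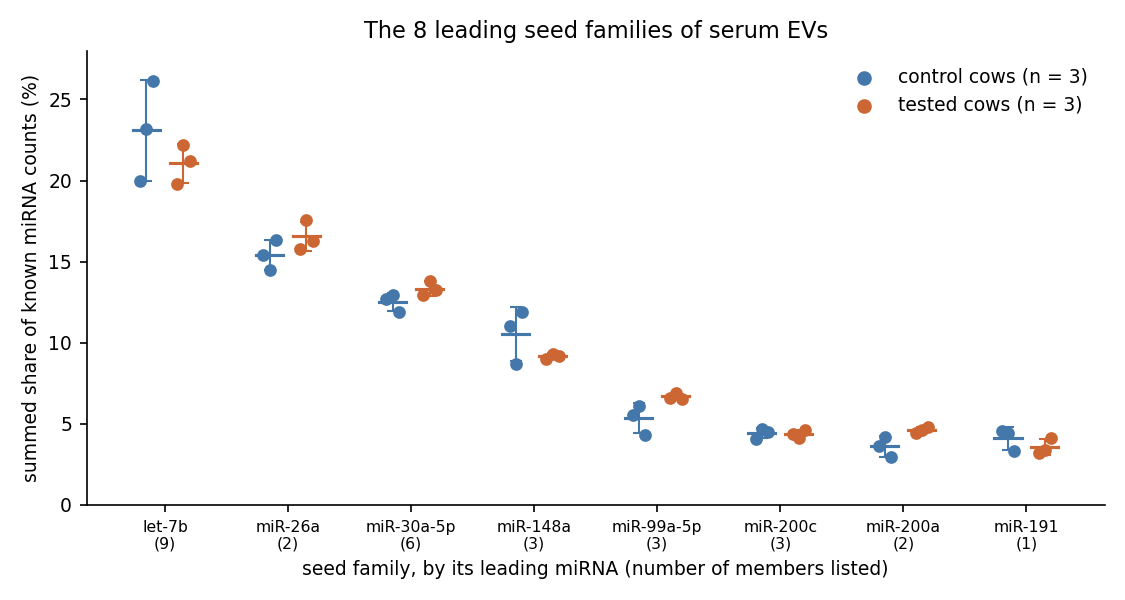
Summed share of known miRNA counts (y axis, %) for the 8 leading seed families (x axis, named by the leading miRNA, with the number of listed members in brackets). Points are cows, short lines are group means and bars are SD (n = 3). The miR-30 points lie between 11.9% and 13.8%, below let-7 and bta-miR-26a, and the control and tested points meet near 12.9%.

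The leading member was bta-miR-30a-5p, a miRNA known to lower BECN1. It held 5.89%, 5.79% and 5.50% of the known miRNA counts in control cows and 5.83%, 7.10% and 6.05% in tested cows. Tested cow 2 was the highest and tested cow 1 lay within the control range, so the groups overlapped (exact permutation test, two-sided, p = 0.2). The tested mean was higher by 0.598 percentage points, and by 0.211 without tested cow 2. Among known miRNAs it ranked 4 or 5 in every library. Its counts ran from 71496 to 133405.

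Second was bta-miR-30d, which other studies link to enzymes of protein glycosylation. It held 3.80%, 4.17% and 3.48% in control cows and 3.87%, 3.89% and 3.96% in tested cows. All tested cows lay inside the control range, and the SD was 0.346 percentage points for the control group and 0.0481 for the tested group (exact permutation test of the means, p = 0.7). It ranked 8 or 9 among known miRNAs in each library. Of the 62 known miRNAs with a mean count of at least 1000, it ranked 3 from the smallest spread of log2 share over the 6 cows, with an SD of 0.0859 against a median of 0.221.

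The partners of these members in the gene table were next in level. The member bta-miR-30f held 1.35%, 1.45% and 1.35% in control cows and 1.57%, 1.15% and 1.54% in tested cows. Tested cows lay on both sides of the control cows, with tested cow 2 the lowest of all (exact permutation test, p = 0.9). The member bta-miR-30b-5p held 0.797%, 0.755% and 0.724% in control cows and 0.971%, 0.862% and 0.887% in tested cows. All 3 tested cows lay above all 3 control cows, with means of 0.758% ± 0.0367 (SD, n = 3) and 0.907% ± 0.0572 (SD, n = 3). The exact permutation test gave p = 0.1, the smallest that 3 cows against 3 allow, so this design cannot reach 0.05. It was the single member of the 6 with groups that did not overlap by share, and among the 312 known miRNAs with at least 10 counts 8.01% did not overlap. As a share of clean reads its groups overlapped, with 858 to 1304 RPM in control cows against 826, 1345 and 766 RPM in tested cows.

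The least abundant members were those hosted by NFYC. The member bta-miR-30e-5p held 0.793%, 0.687% and 0.743% in control cows and 0.619%, 0.750% and 0.704% in tested cows. The groups overlapped (exact permutation test, p = 0.5), and tested cow 1 was the lowest. Far below came bta-miR-30c, known to act on CCN2 in heart and on lipoprotein assembly in liver. It held 0.0844%, 0.0815% and 0.0711% in control cows and 0.0774%, 0.0810% and 0.104% in tested cows. Tested cow 3 was the highest and the other cows of the groups overlapped (exact permutation test, p = 0.6). The tested mean was higher by 0.00864 percentage points, by 0.00468 without control cow 3 and by 0.00023 without tested cow 3. It ranked between 49 and 56 among known miRNAs. With 950 to 2181 counts per library, its 95% Wilson intervals reached 4.20% to 6.36% of the value to each side, against at most 2.24% for the other members. Each such interval comes from a single library, so it leaves out the spread between cows. PCR copies of a molecule are counted as separate reads, so it can also understate the error of counting.

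**Figure D2:**
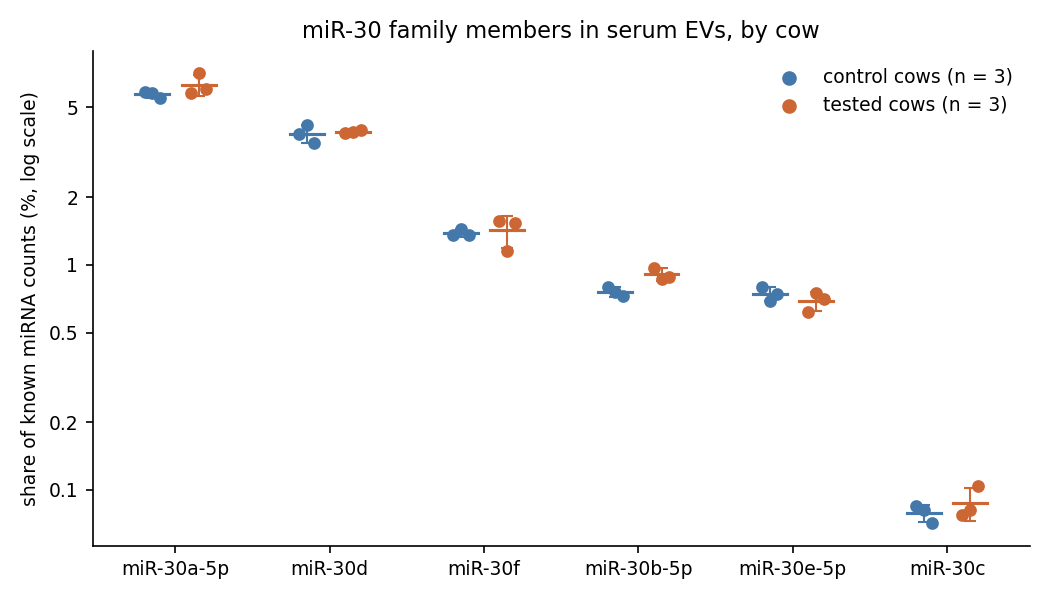
Share of known miRNA counts (y axis, %, log scale) of each of the 6 members (x axis, in order of abundance). Points are cows, short lines are group means and bars are SD (n = 3). The levels span from about 6.03% for bta-miR-30a-5p to about 0.0833% for bta-miR-30c, and the groups part for bta-miR-30b-5p alone.

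The order bta-miR-30a-5p, bta-miR-30d, bta-miR-30f, bta-miR-30b-5p, bta-miR-30e-5p and bta-miR-30c held in 5 of the 6 libraries. Of the 15 pairs of members, 14 kept their order in all 6 cows. The exception was bta-miR-30b-5p over bta-miR-30e-5p, with count ratios of 1.00, 1.10 and 0.974 in control cows and 1.57, 1.15 and 1.26 in tested cows. In the control group these neighbours did not differ beyond their spread, at 0.758% ± 0.0367 and 0.741% ± 0.0532 (SD, n = 3). Without control cow 2 the control means of the pair changed places. All other neighbours kept their order in every cow. The ratio of bta-miR-30a-5p to bta-miR-30d ran from 1.39 to 1.83, that of bta-miR-30d to bta-miR-30f from 2.46 to 3.37, and that of bta-miR-30f to bta-miR-30b-5p from 1.34 to 1.92. The step from bta-miR-30e-5p down to bta-miR-30c was the widest of the order, at 6.74 to 10.5.

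Within the family, bta-miR-30a-5p took 44.8% to 51.3% of the counts and bta-miR-30d took 28.1% to 32.3%, together 76.5% ± 1.60 (SD, n = 6). The subgroup of bta-miR-30a-5p, bta-miR-30d and bta-miR-30e-5p took 82.2% ± 0.279 (SD, n = 3) for the control group and 81.8% ± 2.68 (SD, n = 3) for the tested group. The 3 control cows were close together, at 82.4%, 82.3% and 81.9%, and the tested cows were spread around them, at 79.8%, 84.8% and 80.9%. The high value belonged to tested cow 2, where bta-miR-30a-5p reached 51.3% and bta-miR-30f was at 8.33% of the family, against 44.8% to 46.3% and 10.7% to 12.1% in the other cows. None of the 6 members had family shares in which the groups did not overlap. The exact permutation test on these shares gave p = 0.2 for bta-miR-30b-5p and bta-miR-30e-5p and 0.6 to 1 for the other members.

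**Figure D3:**
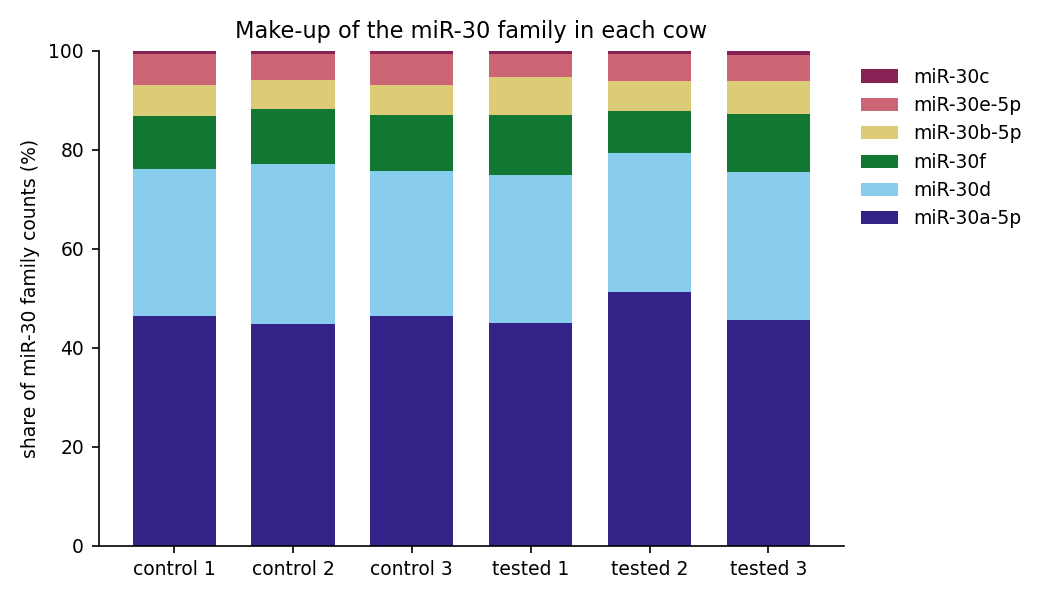
Make-up of the miR-30 family in each cow (x axis), as a percentage of the summed counts of the 6 members (y axis). Bars are single libraries, so they carry no error. The 2 lowest blocks, bta-miR-30a-5p and bta-miR-30d, reach 75.0% to 79.4% in every cow, and tested cow 2 has the tallest block of bta-miR-30a-5p.

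Ratios within a library do not depend on any total. For the pair MIR30A and MIR30F, bta-miR-30a-5p exceeded bta-miR-30f by 4.35, 3.996 and 4.06 times in control cows and by 3.71, 6.16 and 3.93 times in tested cows. Tested cow 2 stood apart and the other 5 cows were within 3.71 to 4.35. For the pair MIR30D and MIR30B, the ratio of bta-miR-30d to bta-miR-30b-5p was 4.77, 5.53 and 4.81 in control cows and 3.98, 4.51 and 4.46 in tested cows. Every tested cow was below every control cow (exact permutation test, p = 0.1). For the pair MIR30E and MIR30C, the ratio of bta-miR-30e-5p to bta-miR-30c was 9.40, 8.43 and 10.5 in control cows and 7.99, 9.26 and 6.74 in tested cows, and the groups overlapped (exact permutation test, p = 0.2). Of the 15 ratios between members, 3 had groups that did not overlap, those of bta-miR-30d to bta-miR-30b-5p, of bta-miR-30b-5p to bta-miR-30e-5p and of bta-miR-30a-5p to bta-miR-30e-5p. The last was 7.42, 8.42 and 7.40 in control cows and 9.42, 9.46 and 8.60 in tested cows (exact permutation test, p = 0.1). Among all 1891 ratios of known miRNAs with a mean count of at least 1000, 18.8% did not overlap, and 3 of 15 is close to that.

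Members close in sequence differed in level to unlike degrees. The ratio of bta-miR-30f to bta-miR-30c was 16.1, 17.8 and 19.1 in control cows and 20.3, 14.2 and 14.7 in tested cows, a mean of 17.0 ± 2.42 (SD, n = 6). These sequences differ by T9C and the last base, as printed above. The control cows lay within the range of the tested cows (exact permutation test, p = 0.6). Of the pairs a single base apart, bta-miR-30a-5p to bta-miR-30d had a ratio of 1.39 to 1.83 and bta-miR-30a-5p to bta-miR-30e-5p one of 7.40 to 9.46.

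**Figure D4:**
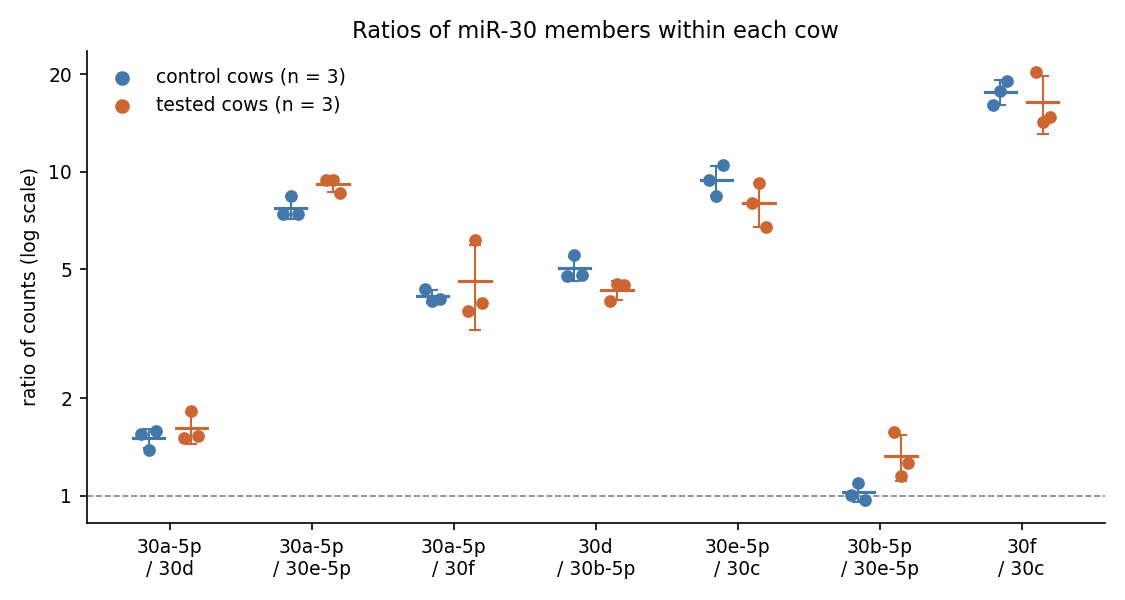
Ratio of the counts of 2 members within a library (y axis, log scale) for 7 pairs (x axis). Points are cows, short lines are group means, bars are SD (n = 3) and the dashed line marks equal counts. Only bta-miR-30b-5p over bta-miR-30e-5p comes near 1, with 0.974 in control cow 3, while bta-miR-30f over bta-miR-30c lies between 14.2 and 20.3.

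The diets were compared with the quasi-likelihood test of edgeR over the 623 miRNAs with at least 10 counts in all. A call needed an unadjusted p under 0.05 and a log2 fold change beyond 1 in either direction, the threshold printed above the heat map of the study. Of the 623, 3.21% were called and 4.65% had an unadjusted p below 0.05. Of the 6 members, 0 were called and 0 had an unadjusted p below 0.05, and DESeq2 and limma also gave 0 on both counts. Over all miRNAs, DESeq2 called 4.26% of the 611 to which it gave a p and had 4.91% below 0.05, and limma called 5.46% of 623, which were all those it had below 0.05. Positive log2 fold changes mean a higher level with the tested diet. They were 0.20 (standard error 0.166) for bta-miR-30b-5p, 0.09 (standard error 0.133) for bta-miR-30a-5p and 0.09 (standard error 0.303) for bta-miR-30c. For bta-miR-30e-5p the value was -0.16 (standard error 0.183). For bta-miR-30f it was -0.03 (standard error 0.157) and for bta-miR-30d -0.02 (standard error 0.125), and the sign of these last members turned when library sizes were used without TMM factors (0.03 for both). The p-values adjusted by Benjamini and Hochberg over the 623 miRNAs in edgeR ran from 0.681 for bta-miR-30b-5p to 0.987.

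A p above the threshold does not show that the diets gave equal levels, so the intervals are of more use. The 95% intervals of edgeR ran from -0.16 to 0.56 for bta-miR-30b-5p, from -0.20 to 0.38 for bta-miR-30a-5p and from -0.29 to 0.25 for bta-miR-30d. They ran from -0.37 to 0.31 for bta-miR-30f, from -0.55 to 0.24 for bta-miR-30e-5p and from -0.57 to 0.74 for bta-miR-30c. All 6 edgeR intervals lay inside a log2 fold change of 1 in either direction, and the widest was that of bta-miR-30c. This bound depended on the tool. The standard errors were 0.125 to 0.303 in edgeR, 0.245 to 0.288 in DESeq2 and 0.433 to 0.443 in limma on log2(CPM + 1). In DESeq2 the 95% intervals of all 6 members also lay inside 1, between -0.78 and 0.63. In limma the interval of each member passed 1 in at least 1 direction, with bounds reaching -1.25 for bta-miR-30e-5p and 1.26 for bta-miR-30b-5p. The median absolute log2 fold change was 0.09 over the members. It was 0.20 over the 62 known miRNAs with a mean count of at least 1000 and 1.01 over all 623, many of which had few counts. In CPM, counts scaled to a common library size by TMM, bta-miR-30b-5p was the single member with groups that did not overlap, at 7427, 7342 and 7708 in control cows and 9283, 8774 and 7787 in tested cows. Of the 623 miRNAs, 10.8% did not overlap on this scale, and 8.03% did so with the tested group higher.

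**Figure D5:**
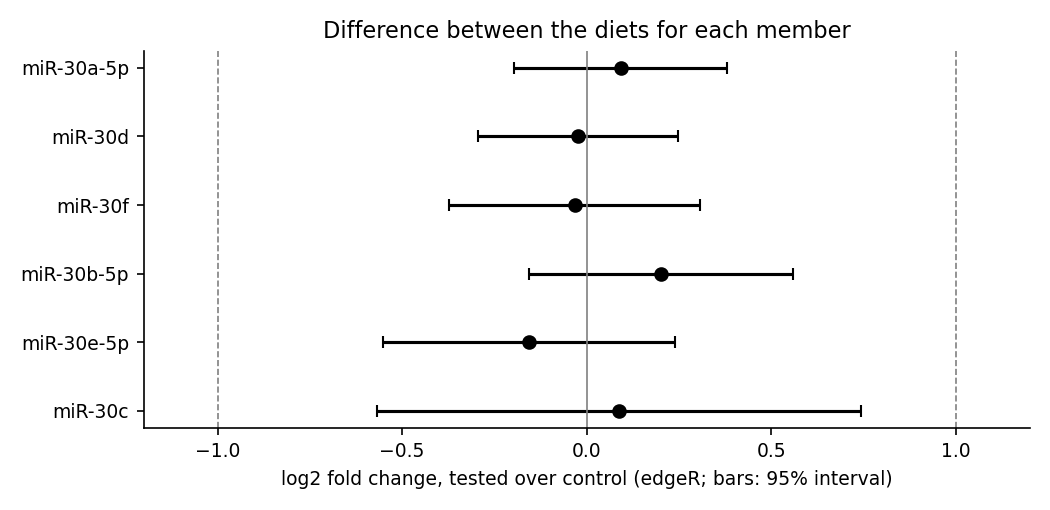
Log2 fold change of tested over control for each member (points, x axis) with its 95% interval from edgeR (bars, 3 cows per group). The solid line marks no difference and the dashed lines a log2 fold change of 1 in either direction. All these edgeR intervals cross the solid line and end before the dashed lines, the widest reaching 0.74 for bta-miR-30c.

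The table lists a single opposite arm, bta-miR-30b-3p, the strand of the MIR30B hairpin that pairs with bta-miR-30b-5p. It is shown with its own seed in capitals because that seed differs from the seed of the family.
bta-miR-30b-3p: cTGGGAGGtggatgtttactt

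Counts of this arm were 61, 25 and 92 in control cows and 0, 54 and 14 in tested cows. The 0 in tested cow 1 allows a share of up to 0.000245%. Over all libraries the 5p arm had 88454 counts against 246 on the 3p arm, a ratio of 360. In the libraries with counts the ratio ran from 157 to 1323. The edgeR log2 fold change of the 3p arm was -1.48 with a 95% interval from -4.99 to 2.04 (adjusted p = 0.823), and the groups overlapped. This interval leaves large changes in either direction open. Of the 383 miRNAs tested with a mean count no higher than that of this arm, 12 were called.

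The known miRNAs with the steadiest ratio to the family sum were found by the SD of the log2 of that ratio over the 6 libraries. Among 56 known miRNAs outside the family with a mean count of at least 1000, the smallest were bta-miR-26a at 0.0943, bta-miR-27b at 0.105 and bta-miR-25 at 0.109. The median was 0.222 and the largest 1.19. This measure is a description over 6 libraries, and 2 miRNAs that both vary little give a small SD without rising and falling together. The share of bta-miR-26a was 14.96% ± 0.872 (SD, n = 3) for the control group and 16.06% ± 0.833 (SD, n = 3) for the tested group, a higher mean in tested cows as for the family. The share of bta-miR-27b was 0.893% ± 0.0340 (SD, n = 3) for the control group and 0.863% ± 0.0354 (SD, n = 3) for the tested group, so its mean was lower in tested cows where that of the family was higher. That of bta-miR-25 was 0.121% ± 0.00362 (SD, n = 3) and 0.129% ± 0.0108 (SD, n = 3).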

How the data were processed

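Small RNAs of serum EVs from 6 cows were sequenced, 1 library per cow. Per the labels and the methods, the authors trimmed reads (cutadapt 1.14 is named), kept those of 15 to 41 nt, matched them to the bovine genome (ARS-UCD1.2, with Bowtie named), set other RNA classes aside and took known miRNAs from miRBase. The authors deposited whole-number counts without normalization. The tool that counted them is not given in the sources used here. The deposited table headed TPM holds RPM values, since each count divided by its value gives 1 number per library, the clean reads (11048676 to 24187264). Its fold changes, standard errors, test statistics and p-values, and the deposited list of called miRNAs, were made by the authors and were not used.

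Groups came from the sample titles. The main test was edgeR 4.0.16 in R 4.3.3 (TMM factors and the default settings of estimateDisp, glmQLFit and glmQLFTest) for the 623 of 706 miRNAs with a count sum of at least 10, all 6 libraries and no covariate. It was tested on simulated data. Shares and ratios were compared by two-sided exact permutation tests (Python 3.11.15, SciPy 1.17.1). Wilson intervals are at 95%, and a count of 0 was given a limit of 3 counts. Alternatives were DESeq2 1.42.0, limma 3.58.1 on log2(CPM + 1), other factors, filters and totals, a replicate block, and each library left out in turn. The named miRNAs are the members, listed relatives by name, seed or nesting, the 3 with the steadiest ratio to the family sum, neighbouring seed families, and 6 marker lists (19 miRNAs). Members, lists and tests were chosen with earlier results of these data known. The libraries were distinct (chi-square per degree of freedom at least 96.1 between any 2). No coordinates are given, since the gene table is of another assembly.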

Additional observations from a re-analysis of the deposited data

How the results depend on the processing

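None of the 6 members passed the threshold under any of the 10 other fits or with any cow left out (0 in each). Over all miRNAs with a p, those other fits called 1.92% to 5.46%, and the fits without a cow 2.80% to 3.85%. The direction of the edgeR log2 fold change turned for bta-miR-30d and bta-miR-30f with library sizes without factors (0.026 and 0.026) and with known miRNAs alone in the fit (0.017 and 0.014). With cows left out in turn it ran from -0.064 to 0.20 for bta-miR-30a-5p, -0.078 to 0.040 for bta-miR-30d and -0.12 to 0.049 for bta-miR-30f. It kept its sign for the other 3. The range was 0.14 to 0.29 for bta-miR-30b-5p, 0.025 to 0.16 for bta-miR-30c and -0.29 to -0.087 for bta-miR-30e-5p. As a share of clean reads, tested minus control was -0.380 percentage points for the family, -0.137 for bta-miR-30a-5p, -0.0137 for bta-miR-30b-5p, -0.00216 for bta-miR-30c, -0.138 for bta-miR-30d and -0.0572 for bta-miR-30f, each against a positive difference in known miRNA counts. The cause was not tested.

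With cows left out in turn, the difference in share of known counts ran from 0.511 to 1.04 for the family, from 0.211 to 0.847 for bta-miR-30a-5p, from 0.116 to 0.171 for bta-miR-30b-5p, from 0.00023 to 0.0137 for bta-miR-30c, from -0.0802 to -0.0143 for bta-miR-30e-5p, from -0.0801 to 0.266 for bta-miR-30d and from -0.0404 to 0.168 for bta-miR-30f. The difference in share of the family ran from -0.436 to 2.69 for bta-miR-30a-5p, from -0.0386 to 0.0628 for bta-miR-30c and from -1.11 to 0.793 for bta-miR-30f. The order of the family kept 4 to 6 of its 6 places. No other listed miRNA could be added to the family by seed or nesting. Counts limit bta-miR-30c and bta-miR-30b-3p most.

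The replicate block changed no call and no sign, and gave log2 fold changes from -0.16 to 0.20 for the members, with 12 of 623 miRNAs called in place of 20. The libraries share only a number, with same-number correlations of their deviations of 0.0399 to 0.116. All 3 control libraries but 2 of the 3 tested ones were closest to their own number.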

Other observations

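Counts were spread over more members in the miR-30 family than in most of the leading seed families. Its leading member bta-miR-30a-5p held 46.6% ± 2.41 (SD, n = 6) of the family, and 4 of the 6 members held more than 5% in every library. In the let-7 family bta-let-7b held 50.6% ± 1.78 (SD, n = 6), with 3 of 9 members above 5% in every library. In the other seed families of more than 1 member among the leading 8, the leading member held more, from 64.2% ± 2.16 (SD, n = 6) for bta-miR-200a to 99.6% ± 0.0659 (SD, n = 6) for bta-miR-148a.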
